A study of Mus musculus with 2 samples.

Results

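Open chromatin at the potassium channel genes of the mouse embryonic limb was described from 2 deposited DNase-seq libraries. The genes were all protein-coding genes of the GENCODE mouse annotation on chromosomes 1 to 19 whose symbol is Kcn, a letter and a number. They numbered 79 of 20807 autosomal protein-coding genes, with 190 of 52177 annotated transcript starts. The rule uses gene names and no measured value of a gene.

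The study mapped DNase I cutting in limb tissue of B6NCrl embryos at 11.5 days, with male and female embryos pooled. The labels give 1 group with 2 biological replicates that share a donor label, and no treatment, genotype or second stage. Whole limb tissue mixes mesenchyme, ectoderm, vessels, blood and nerve, so a site open in few cells and a site weakly open in many cannot be told apart. All values below are therefore counts and ranks of open regions within these libraries, with no test between conditions.

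Potassium channels let potassium leave or enter the cell and set its resting voltage. The voltage-gated families (Kcna to Kcnd, with the modifier subunits Kcnf, Kcng, Kcns and Kcnv) the KCNQ channels and the EAG and ERG channels (Kcnh) open on depolarisation, and Kcne subunits modify them. Inward rectifiers (Kcnj) and the leak channels (Kcnk) hold the resting voltage, and Kcnn, Kcnt and Kcnu channels respond to internal ions or to pH and voltage. These channels are best known from nerve, heart and kidney, but some also act in limbs and fins. Variants of human KCNJ2 cause Andersen-Tawil syndrome, which includes digit anomalies, human KCNH1 and KCNN3 variants cause Zimmermann-Laband syndrome, and altered Kcnk5 or Kcnh2 orthologues lengthen zebrafish fins.

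Replicate 1 held 170134 autosomal peaks and replicate 2 held 163248, and the overlapping ones merged into 115800 shared peaks. A deposited peak is a 150 bp interval of high cutting with a signal from 2 to 150, whose scaling is not stated. It was used here only as a percentile among the peaks of its own library. Read depth is unknown because the lists hold no counts, and the Wilson intervals below cover counting error over genes or regions only. Of the 8 limb mesenchyme markers, 8 had a shared promoter peak, as did 5 of 6 ectoderm, 7 of 8 neuron, 3 of 6 muscle and heart, 1 of 4 endothelium and 1 of 5 blood markers. Of all autosomal genes 68.1% had one, and the Wilson interval held that share for every list but blood (3.62 to 62.4%). These counts alone do not show which cells were present. What cells other than mesenchyme contribute to the potassium channel peaks was not tested.

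Most potassium channel genes had an open promoter, but its peak usually ranked lower than the promoter peaks of other genes. A peak centred within 1 kb of a start was found for 62 members in replicate 1 and 65 in replicate 2, where 69.7% and 70.1% of all autosomal genes had one. Shared peaks lay at 60 of the 79 members, or 75.9% (Wilson 95% interval 65.5 to 84.0%), against 68.1% of all genes. With only peaks above the median signal of their library, 60.8% of members had one, against 64.2% of all genes, so the direction turned. Where a shared promoter peak was present, the highest one of each member had a median mean percentile of 78.6 (n = 60), against 95.2 over all genes with one (n = 14168). A shared promoter peak at percentile 90 or more was found at 12 members, or 15.2% (8.91 to 24.7%), against 47.7% of all genes. At percentile 80 or more there were 27 members, against 56.2% of all genes. No shared promoter peak of a member lay within 1 kb of a start of another protein-coding gene. Over all genes, 29359 pairs of a gene and a shared promoter peak came from 26888 peaks, so some peaks counted for more than 1 gene. Whether this bears on the ranks was not tested.

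The low rank was present for CpG-rich and CpG-poor starts alike. CpG density, the observed over expected count of CG in 1 kb around the 5′ end of the gene, reached 0.6 at 33 of the 79 members and at 47.2% of all genes. A promoter peak counted at any annotated start, so it can lie at a start other than the one measured. This was so at the CpG-poor members Kcnj16 and Kcnu1. Of these 33 members 29 had a shared promoter peak, or 87.9% (72.7 to 95.2%), against 97.3% of all CpG-rich genes. That difference rests on 4 members, of which Kcnh7, Kcnj12 and Kcnk6 had promoter peaks in replicate 2, and in replicate 2 alone 32 of the 33 had one, or 97.0%, against 98.2%. Of the 46 CpG-poor members 31 had a shared one, or 67.4% (53.0 to 79.1%), against 42% of all CpG-poor genes, and 33 in either library alone. The members' medians were percentile 80.2 at CpG-rich and 76.7 at CpG-poor starts, against 96.5 and 88.7 over all genes. So the members had a shared peak more often than the background at CpG-poor starts, and their peaks ranked lower in both classes.

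**Figure D1:**
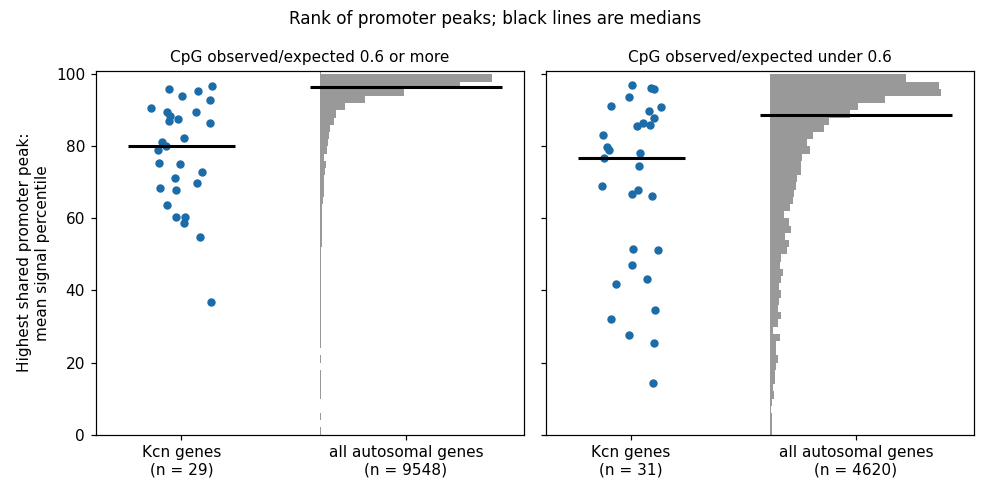
Each point is the highest shared promoter peak of a potassium channel gene, as the mean over both libraries of its signal percentile, beside a histogram of the same value over all autosomal genes that have one (bar lengths scaled within each panel). Black lines are the medians, 80.2 against 96.5 at CpG-rich starts and 76.7 against 88.7 at CpG-poor starts, and the points spread down the axis where the histograms crowd at the top.

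Other channel genes were set beside them from lists of fixed names. Of 26 potassium channel partners, which include the Kcnab and Kcnip subunits, Kcnma1 and the Hcn pacemaker channels, 20 had a shared promoter peak with a median percentile of 73.7. Of 14 sodium channel genes 11 had one, with a median of 74.9, and of 9 calcium channel pore genes 7 had one, with a median of 88.3. The 6 autosomal chloride channel and transporter genes (Clcn) had 5, with a median of 94.9. The potassium and sodium channel lists thus lay low and the Clcn genes near the all-gene median, but these lists are small and their differences were not tested. Low medians were not particular to channel genes. Among the marker lists the median was 69.9 for muscle and heart, 72.5 for ectoderm, 73.9 for blood and 81.3 for neurons. It was 93.1 for endothelium and 94.6 for limb mesenchyme. The blood and endothelium values rest on 1 gene each.

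The open promoters of highest rank belonged to genes of several families. Kcnj2, an inward rectifier, led with a peak centred at -63 bp from its start and signals of 115 in replicate 1 and 119 in replicate 2, at a mean percentile of 97.0. Kcnk5, a leak channel of kidney, followed with signals of 112 and 121 (percentile 96.9). Kcnn3, a small-conductance calcium-activated channel, had 113 and 115 (percentile 96.3). These 3 peaks had nearly the same rank in both libraries. Kcnt2, a sodium-activated channel, had 109 and 115 (percentile 95.8). Kcnh2, the ERG channel that repolarises the heart, had 104 and 118 (percentile 95.5). Kcna3, known from lymphocytes, had 101 and 108, and Kcnf1, a modifier subunit that forms no channel alone, had 107 and 98. Kcnc1, Kcnn2, Kcna1 and Kcnh1 also reached percentile 90 or more, between 90.6 and 92.7. That peak of Kcna1 was centred at -998 bp from its nearest start, just inside the 1 kb limit. The Kcna1 peak at 65 bp had percentile 62.1.

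The central 150 bp of the Kcnn3 and Kcnh2 promoter peaks are shown as examples of high-ranking and differently built promoters, read from the RefSeq GRCm38 genome, which is the build of the files. Capitals mark GGGCGG on either strand, the only searched word in them.
Kcnn3 promoter peak (chr3:89520006-89520155, plus strand): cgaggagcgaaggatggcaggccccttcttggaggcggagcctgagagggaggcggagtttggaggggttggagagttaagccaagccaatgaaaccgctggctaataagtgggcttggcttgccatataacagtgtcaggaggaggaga
Kcnh2 promoter peak (chr5:24351696-24351845, plus strand): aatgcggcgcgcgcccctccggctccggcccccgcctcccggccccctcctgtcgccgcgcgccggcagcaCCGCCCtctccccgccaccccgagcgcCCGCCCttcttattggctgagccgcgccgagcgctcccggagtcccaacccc
The Kcnh2 stretch was 80% G and C with 23 CG dinucleotides and 2 copies of the word, and the Kcnn3 stretch was 57.3% G and C with 5 CG and no copy. The word was present in 52 of the 127 shared promoter peaks of members (40.9%), against 41.9% of the shared promoter peaks of all genes.

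At the low end, Kcnj16 had a single shared promoter peak with signals of 30 and 23 (percentile 14.3). It lay in an intron, at -729 bp from an internal start of the gene. Kcnj16 encodes a subunit that forms channels with Kcnj10 in kidney and glia. Kcnu1, a sperm channel, had 32 and 30 (percentile 25.4), and Kcnv2, a modifier of photoreceptors, had 37 and 27 (percentile 27.7). Kcnv1, another modifier, reached percentile 34.7. With the 5′ end of each gene only, Kcnj16 and Kcnu1 had no shared promoter peak. Kcnj8, which pairs with the sulfonylurea receptor Abcc9 in vessels, stood near the middle with signals of 65 and 77 (percentile 79.0), and so did Kcnb2, a delayed rectifier, with 65 and 65 (percentile 75.4). Over the 60 members the rank of the highest peak was higher in replicate 2 for 44, with a median difference of 1.89 percentile points, and the libraries differed by over 10 points for 14 members. This was not particular to the members. Promoter peaks of all genes had a median percentile of 68.6 in replicate 1 and 76.3 in replicate 2, and those of members 48.7 and 52.1.

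**Figure D2:**
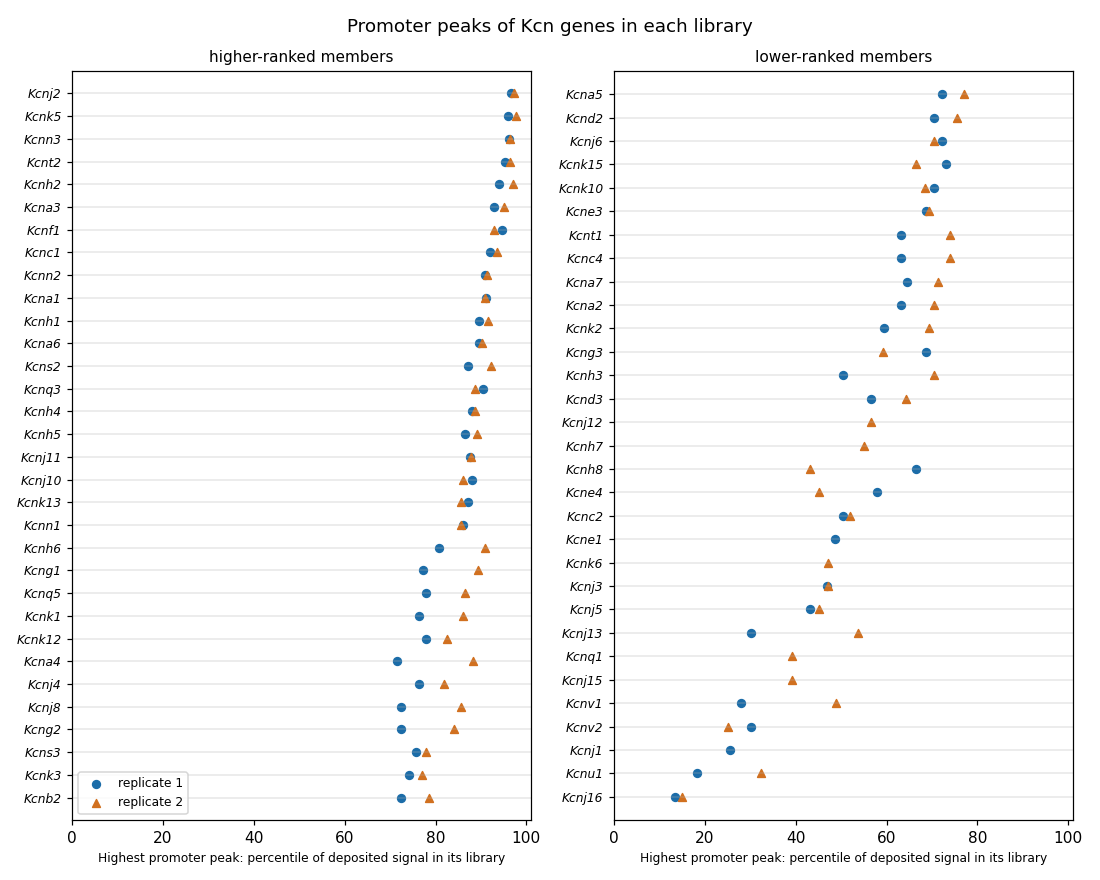
The highest promoter peak of 63 of the 67 potassium channel genes with one in either library, as a percentile of the deposited signal in replicate 1 (circles) and replicate 2 (triangles); genes are ordered by their mean, with a single symbol where only that library has a peak. Kcnj2 and Kcnk5 are at the top with both symbols above 95, and Kcnj16 is lowest, with a mean of 14.3.

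By family, a shared promoter peak was present at 15 of 16 voltage-gated pore genes, all but Kcna10, and at 7 of 8 EAG and ERG genes, all but Kcnh7. It was present at 6 of 7 calcium- or sodium-activated genes, all but Kcnn4, and at 8 of 10 modifier genes and 4 of 5 KCNQ genes. The inward rectifiers had it at 10 of 15, the leak channels at 8 of 14 and the accessory Kcne subunits at 2 of 4. The median percentile was highest for the calcium- or sodium-activated genes at 88.5 and the EAG and ERG genes at 87.8, and lowest for the KCNQ genes at 59.5 and the accessory subunits at 60.3. Families of this size differ by a few genes, and their order was not tested.

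In neither library was there a promoter peak at 12 members, or 15.2%, against 28.6% of all genes. They were Kcna10, Kcne2, Kcng4, Kcnj9, Kcnj14, Kcnk4, Kcnk7, Kcnk9, Kcnk16, Kcnk18, Kcnn4 and Kcns1. Of these, 11 had a CpG-poor start and Kcnk9 a CpG-rich one. Kcnk9, a leak channel expressed in brain from the maternal allele, and Kcns1, a modifier subunit, had a shared peak within 1 kb of a RefSeq start that GENCODE does not list, 987 bp away for Kcnk9. With RefSeq starts added, 62 members had a shared promoter peak, and with only the curated RefSeq starts added, 60.

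At members with promoter peaks in only 1 library, these peaks ranked below the all-gene promoter median of that library. That median was percentile 68.6 in replicate 1 and 76.3 in replicate 2. Promoter peaks in both libraries with none overlapping were found at 0 members (all genes, 0.303%). Replicate 1 alone had a promoter peak at 2 members (all genes, 1.3%). Kcne1, the partner of Kcnq1 in the slow repolarising current of the heart, had a signal of 46 (percentile 48.7), and Kcnj1, the potassium secretory channel of kidney, had 35 (percentile 25.5). Replicate 2 alone had them at 5 members (all genes, 1.7%), with no peak above percentile 56.6. Kcnj12, an inward rectifier of muscle, had 4 peaks with signals from 29 to 43, and Kcnj15, another rectifier, had 6 with signals from 27 to 33. Kcnk6 had 3 with signals from 35 to 37, Kcnh7, an ERG channel, had a peak of 42, and Kcnq1 had a peak of 33. The hotspots around these 17 peaks had −log10 q values from 1.42 to 4.55, all under the ceiling of 100. The outermost peak of Kcnj15 overlapped a peak of replicate 1, but their merged centre lay over 1 kb from the start.

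Kcnh7 is shown because its start is CpG-rich and had no shared peak within 1 kb, beside Kcnj2, which is CpG-poor by the same measure and had the promoter peak of highest rank. Each line holds the 250 bases before the start in the RefSeq promoter table of GRCm38, in the direction of the gene, with CG in capitals.
Kcnj2 upstream (chr11:111065914-111066163, plus strand): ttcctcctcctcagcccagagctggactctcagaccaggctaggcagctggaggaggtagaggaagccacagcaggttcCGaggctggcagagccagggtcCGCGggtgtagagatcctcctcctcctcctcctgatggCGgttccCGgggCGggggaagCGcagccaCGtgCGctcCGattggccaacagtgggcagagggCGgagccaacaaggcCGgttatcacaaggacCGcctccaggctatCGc
Kcnh7 upstream (chr2:63184288-63184537, minus strand): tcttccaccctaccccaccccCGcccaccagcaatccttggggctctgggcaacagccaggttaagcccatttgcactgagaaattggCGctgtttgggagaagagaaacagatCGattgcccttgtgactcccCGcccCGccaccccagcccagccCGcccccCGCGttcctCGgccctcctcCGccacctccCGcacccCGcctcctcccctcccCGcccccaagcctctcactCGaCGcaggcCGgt
The Kcnh7 stretch holds 16 CG and the Kcnj2 stretch 14. A shared peak with signals of 83 and 68 (percentile 82.8) lay at -1944 bp from the Kcnh7 start, and a window of 2 kb counts it as a promoter peak.

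Away from the starts, the gene bodies of members held 208 shared peaks, from 306 in replicate 1 and 318 in replicate 2. At least 1 was present in 53 of the 79 members, against 47.2% of all genes, but the member genes were long, with a median of 29.6 kb against 17.6 kb. Per 100 kb of gene there were 2.84 shared peaks in members, against 4.25 over all genes. Of the 208 peaks 184 lay in introns, 18 in coding exons and 6 in untranslated regions. Body peaks also ranked low, with a median percentile of 39.2 in replicate 1 and 34.8 in replicate 2, against 45.1 and 45.2 for all genes.

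Kcnq1 held the most body peaks, 27 in replicate 1, 35 in replicate 2 and 23 shared, although its own start had only the weak peak of replicate 2. Kcnq1 encodes a cardiac and epithelial channel and lies in an imprinted domain, where the noncoding RNA Kcnq1ot1 starts in an intron and runs against it. A shared peak with signals of 110 and 105 (percentile 94.9) was centred 72 bp from the annotated Kcnq1ot1 start. An intronic peak 15.3 kb from the nearest Kcnq1 start had signals of 113 and 107 (percentile 95.5), and 4 of the 23 reached percentile 90 or more. The strong open sites named here thus lay in introns of Kcnq1 and not at its start in these libraries. Only 9 of the 23 body peaks had a Kcnq1 start as the nearest protein-coding start. The peak at the Kcnq1ot1 start was not among these.
Kcnq1 intronic peak at the Kcnq1ot1 start (chr7:143296546-143296695, plus strand): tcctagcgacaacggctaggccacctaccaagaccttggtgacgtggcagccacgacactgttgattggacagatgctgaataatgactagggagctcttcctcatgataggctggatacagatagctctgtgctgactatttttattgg
Kcnq1 intronic peak (chr7:143124416-143124565, plus strand): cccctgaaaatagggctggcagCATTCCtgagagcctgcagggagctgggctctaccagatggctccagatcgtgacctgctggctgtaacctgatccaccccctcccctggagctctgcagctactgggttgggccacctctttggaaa
Both stretches are the central 150 bp on the genome's plus strand, with GGAATG on either strand in capitals, the only searched word in either. They held 4 and 1 CG dinucleotides in the order shown.

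Other genes with many body peaks were Kcnd2 and Kcnq5 with 13 shared each, Kcnj6 with 12, Kcnn3 with 10, Kcnh1 with 9 and Kcnd3 with 8. At least 10 were present in 5 members, where 5.14% of all genes had as many. Kcnd2 and Kcnd3 carry the fast transient current of neurons and heart, and Kcnq5 a slow current of neurons. Kcnn3 had a strong promoter but weak body peaks, with a median percentile of 30.3, where those of Kcnq1 had a median of 66.2. Across the 79 members the shared body count and gene length had a Spearman correlation of 0.61, against 0.67 over all 20807 genes, as a description across genes that share both libraries.

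Distal peaks, over 1 kb from every protein-coding start and with a member's start nearest within 500 kb, numbered 695 in replicate 1, 690 in replicate 2 and 468 shared. At least 1 was assigned to 73 of the 79 members, against 66.7% of all genes, with a median of 5 per member against 2. The members had more sequence nearest to them, a median of 102 kb against 44.5 kb, and per 100 kb of it they had 2.82 shared peaks, against 3.98 over all genes. At least 10 were assigned to 13 members (all genes, 12.5%) and at least 20 to 3 members (all genes, 4.26%). Higher counts per member thus came with larger territories and a lower density than the background. Nearest start is an assignment by position and does not show which gene a site acts on.

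Of the 468 distal peaks 147 lay inside the assigned gene, 39 inside another gene and 282 between genes, and 342 were within 100 kb. Only protein-coding genes count here, so a peak inside a noncoding gene alone is between genes. Within 1 kb of a noncoding start lay 12 of the 468. Their median percentile was 39.2 in replicate 1 and 37.0 in replicate 2, against 45.1 and 45.2. Within 100 bp of the 1 kb limit lay 4 distal peaks outside it and 4 promoter peaks inside it. Of the peaks outside the GENCODE promoters, 19 lay within 1 kb of a RefSeq start of the same gene, among them peaks of Kcnn1 and Kcnh2. Only 3 of the 19, at Kcna1, Kcna7 and Kcnd3, lay within 1 kb of a curated RefSeq start.

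**Figure D3:**
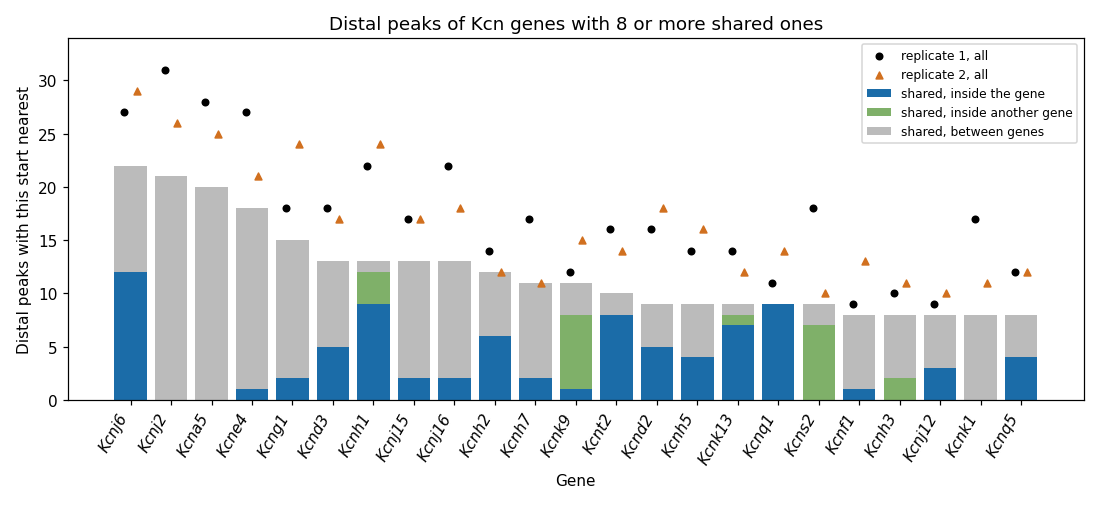
Distal peaks of the 23 potassium channel genes with 8 or more shared ones. Bars show shared peaks by where they lie among protein-coding genes, and symbols show all distal peaks of replicate 1 and of replicate 2. Kcnj6, Kcnj2 and Kcna5 lead with 22, 21 and 20 shared peaks, those of Kcnj2 and Kcna5 all between genes.

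Kcnj6, a G protein-gated rectifier of neurons, had 27, 29 and 22 distal peaks in replicate 1, replicate 2 and shared, 12 of the shared ones inside the gene. Kcna5, a voltage-gated channel of atrium and vessels, had 28, 25 and 20, none inside it. Kcne4, an accessory subunit, had 27, 21 and 18, with a median percentile of 39.0. The Kcng1 counts, for a modifier subunit, were 18, 24 and 15, and those of Kcnj16 22, 18 and 13. Kcnd3 had 18, 17 and 13, Kcnj15 had 17, 17 and 13, and Kcnh1, an EAG channel, had 22, 24 and 13. Kcnh2 had 14, 12 and 12, Kcnh7 had 17, 11 and 11, and Kcnk9 had 12, 15 and 11. Kcnh1 had many peaks in each library but fewer shared. With Kcnj2, the next gene described, these 12 genes held 182 of the 468 shared distal peaks. The peaks of Kcnh2 were the strongest of the 12, with a median percentile of 77.9, and those of Kcnh1 the weakest, at 33.7. Of the 12, Kcnk9 had 7 of its 11 inside the neighbouring gene Trappc9.

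Kcnj2 had 31 distal peaks in replicate 1, 26 in replicate 2 and 21 shared, in the long gene desert it shares with Sox9, a regulator of cartilage. The starts of Kcnj2 and Sox9 are 1716 kb apart, and 97 distal shared peaks lay between them. Of these, 19 were nearest to Kcnj2 within 500 kb, 28 were nearest to Sox9 within 500 kb, and 50 were over 500 kb from both. Of the 21 peaks of Kcnj2, 19 lay on the Sox9 side, 10 lay beyond 300 kb and only 4 within 100 kb. A group of 7 lay between 450 and 480 kb, picked out after the positions were seen. The strongest, with signals of 98 and 81 (percentile 89.7), lay 497237 bp from the Kcnj2 start, near the limit of 500 kb, and its central 150 bp hold none of the searched words.
Kcnj2 distal peak (chr11:111563326-111563475, plus strand): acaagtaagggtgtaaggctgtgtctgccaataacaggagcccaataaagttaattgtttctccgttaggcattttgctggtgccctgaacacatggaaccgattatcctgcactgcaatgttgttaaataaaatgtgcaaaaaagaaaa
In the desert the counts of both genes are set by the limit of 500 kb, so the count of Kcnj2 depends on the reach.

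**Figure D4:**
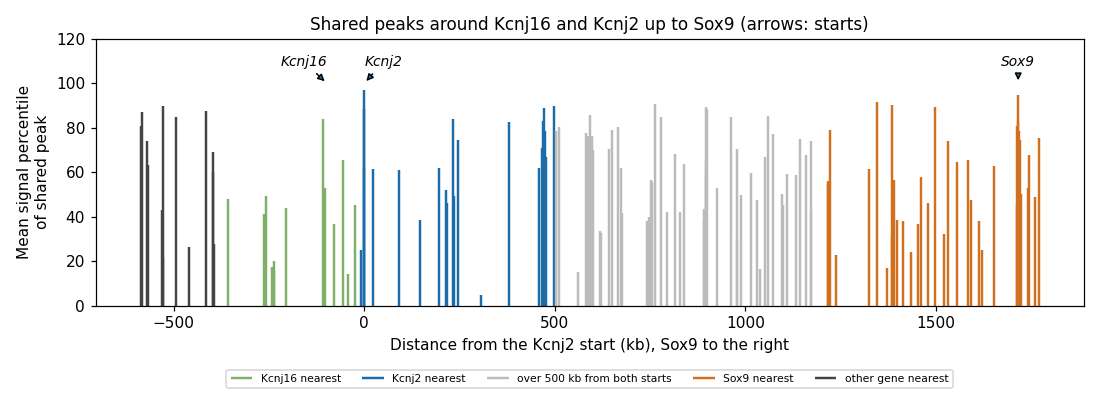
Shared peaks from the Kcnj16 side across Kcnj2 to Sox9, by distance from the Kcnj2 start in kb, with the mean signal percentile over both libraries as height and colour for the nearest start. The Kcnj2 promoter peak is the tallest at 97.0, and 50 peaks in the middle of the interval are over 500 kb from both starts.

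Outside promoters, the shared peak of highest rank at any member lay upstream of Kcnn1, a small-conductance calcium-activated channel of neurons, with signals of 131 and 122 (percentile 98.8). It is centred at -2533 bp from the GENCODE start and 100 bp from a RefSeq start that is not curated, where the nearest curated one is 2533 bp away. It holds the palindrome bound by NRF1, which was present in 1 of 468 distal peaks of members (0.214%) and in 0.0685% of distal peaks of all genes. Also among the 5 of highest rank were the named intronic peaks of Kcnq1 and a peak at -27895 bp from Kcns3, a modifier subunit (112 and 96). The stretches of Kcnn1 and Kcns3 follow with that of Kcna5, with searched words in capitals on either strand.
Kcnn1 upstream peak (chr8:70865716-70865865, plus strand): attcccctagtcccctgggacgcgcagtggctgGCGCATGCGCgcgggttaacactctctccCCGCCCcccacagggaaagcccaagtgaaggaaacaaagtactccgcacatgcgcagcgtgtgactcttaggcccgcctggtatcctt
Kcns3 upstream peak (chr12:11178876-11179025, plus strand): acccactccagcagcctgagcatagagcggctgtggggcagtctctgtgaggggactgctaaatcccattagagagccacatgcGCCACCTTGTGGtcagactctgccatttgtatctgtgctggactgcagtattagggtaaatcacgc
Kcna5 strongest distal peak (chr6:126563946-126564095, plus strand): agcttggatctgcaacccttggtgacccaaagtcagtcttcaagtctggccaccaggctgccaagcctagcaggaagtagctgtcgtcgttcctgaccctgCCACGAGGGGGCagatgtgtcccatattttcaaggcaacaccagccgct
The Kcns3 and Kcna5 stretches carry the consensus of CTCF, the insulator-binding protein. That consensus was present in 62 of the 468 distal peaks of members, or 13.2% (10.5 to 16.6%), against 10.5% of all distal peaks.

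Of 11 words searched on both strands in the central 150 bp, the consensus of REST stood furthest from the background as a ratio and was singled out after the values were seen. REST is a repressor that binds neuronal genes in non-neuronal cells. Its consensus was present in 10 of the 468 distal peaks of members, or 2.14% (1.16 to 3.89%), against 418 of 86072 distal peaks of all genes, or 0.486%. In windows 500 bp to either side of the peaks it was present in 0 of 936 for members (0 to 0.409%), against 0.0163% for all genes. With so low a share over all genes, a count of 0 says little about the members' flanks. In promoter peaks it was present in 3 of 127, or 2.36% (0.807 to 6.72%), against 0.309%. A stricter form of the consensus, with free letters only in its spacer, was in 6 of the 468, or 1.28% (0.589 to 2.77%), against 0.283%. Peaks of Kcnk9 were among these, including both of the near-identical pair described below. The share of the stricter form without Kcnk9 was not computed. The short words lay nearer to the background: CAGCTG was in 20.3% of distal peaks of members (16.9 to 24.2%), against 16.7% of all distal peaks. Distal peaks of members held GGAATG in 10.7%, GGGCGG in 8.33%, TAATTA in 4.49%, AGATAA in 2.99%, CACGTG in 2.78%, TGACTCA in 2.78% and CATATG in 2.14%. All distal peaks held GGAATG in 10.97%, GGGCGG in 7.37%, TAATTA in 5.31%, AGATAA in 3.85%, CACGTG in 3.25%, TGACTCA in 2.94% and CATATG in 3.51%.

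The 13 peaks belonged to 8 genes, and neighbouring peaks of a gene are not independent. Kcnk9 had 4 and Kcnd3 had 3, and Kcnh1, Kcnh2, Kcnh4, Kcnj6, Kcnk12 and Kcnt1 had 1 each. Without Kcnk9 the distal share was 6 of 457, or 1.31% (0.603 to 2.83%). The 10 distal peaks had a median percentile of 78.7, between 51.2 and 92.4, against 51.7 for the 458 distal peaks without the word. In hotspots at the ceiling of −log10 q in both libraries lay 10 of the 10, against 198 of all 468 distal member peaks. How distal peaks with the consensus rank over all genes is not given here. Other channel lists had 4 of 232 for the potassium channel partners, 2 of 60 for the sodium channels and 3 of 104 for the calcium channels. Differences between these lists were not tested.

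**Figure D5:**
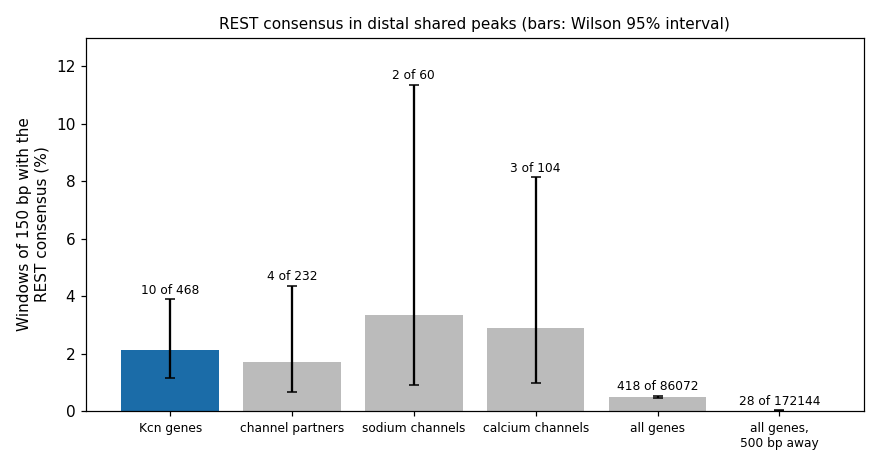
Share of distal shared peaks whose central 150 bp hold the REST consensus, for potassium channel genes, 3 other channel lists and all genes, and for windows 500 bp from the peaks of all genes. Error bars are Wilson 95% intervals; the potassium channel genes stand at 2.14%, against 0.486% for all genes, and the intervals of the small lists are wide.

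A selection of the REST-bearing stretches is shown with the consensus in capitals, on the genome's plus strand, so that a match on the minus strand reads as its reverse complement. Any other capitals mark another searched word, such as the CTCF consensus in Kcnh2.
Kcnh2 (chr5:24357586-24357735, plus strand): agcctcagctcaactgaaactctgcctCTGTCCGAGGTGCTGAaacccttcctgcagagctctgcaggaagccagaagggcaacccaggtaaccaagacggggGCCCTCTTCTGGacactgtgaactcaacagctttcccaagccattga
Kcnj6 (chr16:94995646-94995795, plus strand): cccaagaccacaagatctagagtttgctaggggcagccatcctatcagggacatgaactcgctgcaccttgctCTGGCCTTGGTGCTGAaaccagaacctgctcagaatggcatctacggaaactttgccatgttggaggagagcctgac
Kcnd3 (chr3:105275356-105275505, plus strand): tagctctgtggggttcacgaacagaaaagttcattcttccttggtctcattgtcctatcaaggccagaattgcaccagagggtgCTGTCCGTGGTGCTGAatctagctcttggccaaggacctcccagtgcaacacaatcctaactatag
Kcnh1 (chr1:192457656-192457805, plus strand): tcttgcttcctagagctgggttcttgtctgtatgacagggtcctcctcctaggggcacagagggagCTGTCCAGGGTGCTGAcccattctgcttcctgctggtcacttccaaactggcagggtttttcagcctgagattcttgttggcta
Kcnk9 (chr15:72689896-72690045, plus strand): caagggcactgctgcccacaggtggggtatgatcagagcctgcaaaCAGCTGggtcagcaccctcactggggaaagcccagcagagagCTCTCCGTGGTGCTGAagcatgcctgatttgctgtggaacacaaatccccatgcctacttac
Kcnh4 (chr11:100758936-100759085, plus strand): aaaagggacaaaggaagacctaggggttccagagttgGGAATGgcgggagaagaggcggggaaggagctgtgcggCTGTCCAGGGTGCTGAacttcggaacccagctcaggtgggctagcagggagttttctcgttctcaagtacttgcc
The peak of Kcnh2 at -6057 bp had the highest rank, with signals of 107 and 88, and that of Kcnj6, intronic and 1934 bp from its nearest start, had 87 and 76. The peak of Kcnd3 at -176899 bp had 85 and 67, and that of Kcnh1, intronic and 22991 bp from its nearest start, had 79 and 72. The strongest of Kcnk9, in Trappc9 at -143631 bp, had 98 and 67. The peaks of Kcnk12 (72 and 71) and Kcnh4 (89 and 84) lay within 1 kb of their starts, as did that of Kcnt1 (56 and 59).

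A pair of the Kcnk9 peaks in Trappc9 resembled each other. Their centres were 1470 bp apart, and they shared a run of 62 identical bases on opposite strands, with 121 of 129 bases matching along the best ungapped alignment.
Kcnk9, nearer copy (chr15:72637646-72637795, plus strand): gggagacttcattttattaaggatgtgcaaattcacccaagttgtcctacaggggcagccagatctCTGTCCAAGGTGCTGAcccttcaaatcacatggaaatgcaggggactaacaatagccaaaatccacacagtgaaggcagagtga
Kcnk9, farther copy (chr15:72639116-72639265, plus strand): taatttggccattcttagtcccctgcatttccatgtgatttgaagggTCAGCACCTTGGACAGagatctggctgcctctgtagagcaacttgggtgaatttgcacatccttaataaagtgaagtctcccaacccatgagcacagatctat
The nearer copy had signals of 47 and 40 and the farther copy 67 and 41, lower than the strongest peak of Kcnk9. Reads from near-identical copies can be split or lost in alignment, which was not tested here.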

How the data were processed

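DNase-seq peaks and hotspots of 2 limb libraries were used. Per the file headers and labels, the alignment was to mm10 and each library had its own region calls. Aligner and caller were not given in the sources used here. Deposited lists of peaks give 150 bp intervals with the authors' signal, whose scaling is not stated, and the deposited hotspot lists give a −log10 q value with a ceiling of 100. Instrument models are named for replicate 2 only.

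From these, peaks overlapping by 1 bp or more were merged into shared peaks and assigned to GENCODE M21 protein-coding starts by their centres: promoter within 1 kb of a start, body inside the gene, and distal with that start nearest within 500 kb. A body peak may also be distal. Signals were turned into percentiles within a library. Words were searched in RefSeq GRCm38 sequence, and RefSeq starts were an added alternative. The assignment was tested on simulated data against a direct search. Shares carry Wilson 95% intervals. Depth is unknown.

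Members, lists and words were chosen with earlier results of these data known. Named genes were the 12 members with the most distal and the 8 with the most body shared peaks, the 8 promoters of highest rank, members with a promoter peak in 1 library, 8 genes named by hand and the 5 strongest other peaks; members outside these were named after their values were seen. Results of some genes that the rule names are not reported here, and they are not labelled in the plots. Stretches overlapping untranslated regions are not printed. Python 3.11.15, NumPy 2.4.6, SciPy 1.17.1 and Matplotlib 3.10.9 were used.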

Additional observations from a re-analysis of the deposited data

How the results depend on the processing

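No paired analysis was possible because the study has 1 group and no contrast. The count of members with a shared promoter peak changed by under 1.5 times in every alternative run: 62 to 65 with a single library, 57 with a window of 500 bp or with the 5′ end of each gene only, and 48 with peaks above the median signal of their library, where Kcnj16, Kcne4 and Kcnv2 were among the 12 lost. At that setting the members' share was 60.8%, below the 64.2% of all genes, where without it the members' share was above. Body peaks numbered 306 to 318 with a single library and 102 above the median signal. Distal peaks numbered 690 to 695 with a single library, 226 above the median signal and 268 within 50 kb. Within 100 kb Kcnj2 had 4 distal peaks and Kcnh7 had 3. Alternatives added after seeing the data gave 12 to 15 members with a promoter at percentile 90 or more in a single library, 27 at percentile 80 (all genes, 56.2%) and 6 at percentile 95 (all genes, 34.9%). The REST consensus was in 12 distal member peaks in each library alone (1.73% and 1.74%), against 0.354% of distal peaks of all genes in each. The stricter word was in 6 shared distal member peaks and in 7 in each library alone. Unknown depth limits whether a weak peak in 1 library, as at Kcnj1 or Kcnk6, is absent from the other or under its threshold.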
